A study of Mus musculus with 6 samples.

Results

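The 10 genes Dll4, Jag1 and Jag2 (ligands), Notch1, Notch2, Notch3 and Notch4 (receptors) and Hes1, Hey1 and Heyl (targets) of the Notch pathway were followed through the cell types of mouse lower abdominal muscle (LAM). They were taken by name from a single-cell table of 16494 genes, and all 10 were in it. LAM from 3 WT and 3 Aromhum mice, males of the FVB/N strain aged 9 to 10 weeks, had been dissociated with enzymes, filtered against multinucleated cells and profiled on the 10x Genomics platform, which counts the 3′ ends of transcripts. Aromhum mice carry the human aromatase gene CYP19A1 under its own tissue-specific promoters. The labels gave scrotal hernia for the Aromhum mice and control for the WT mice, so the transgene and the hernia cannot be told apart. Each mouse gave 1 library, and 1 WT and 1 Aromhum littermate were processed on each of 3 dates.

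Notch receptors are cut when a ligand on a neighbouring cell (Delta-like or Jagged) binds and pulls them, and the released intracellular part joins the DNA-binding protein RBPJ to switch on genes such as Hes1, Hey1 and Heyl, which encode transcriptional repressors. In vessels the pathway is known for arterial identity and for the choice between tip and stalk cells of the endothelium, and NOTCH3 for the upkeep of mural cells, the pericytes and smooth muscle cells around the endothelium. In skeletal muscle it is known for keeping muscle stem cells (MuSCs) quiescent.

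RefSeq promoters (GRCm38.p6) were matched for 7 of the 10 genes. The 250 bases before the start of Dll4, Notch4 and Notch3 are shown because Dll4 and Notch4 were at their highest in arterial and capillary endothelium and Notch3 in mural cells. They lie at chr2:119325534-119325783 (Dll4, plus strand), chr17:34564045-34564294 (Notch4, plus strand) and chr17:32166891-32167140 (Notch3, minus strand), and each is read 5′ to 3′ on the strand of its gene. The starts are those of the promoter entries. The Notch4 and Notch3 stretches reach a few bases into the listed genes, which begin at 34564286 (Notch4) and end at 32166896 (Notch3). The Jag2 stretch, not shown, lies inside its listed gene, which ends at 112929812 on the minus strand. Capitals mark AGGAAG or its reverse complement CTTCCT, a form of the motif of ETS factors, a family known for endothelial genes.
Dll4: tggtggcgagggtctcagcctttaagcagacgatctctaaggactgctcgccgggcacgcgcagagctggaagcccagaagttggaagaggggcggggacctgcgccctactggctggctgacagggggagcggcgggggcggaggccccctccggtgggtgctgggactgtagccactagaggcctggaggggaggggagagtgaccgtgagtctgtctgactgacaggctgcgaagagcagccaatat
Notch4: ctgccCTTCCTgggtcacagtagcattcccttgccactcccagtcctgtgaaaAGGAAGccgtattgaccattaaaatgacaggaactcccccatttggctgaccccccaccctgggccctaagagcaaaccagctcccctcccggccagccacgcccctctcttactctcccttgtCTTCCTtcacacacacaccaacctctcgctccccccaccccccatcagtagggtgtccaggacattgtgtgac
Notch3: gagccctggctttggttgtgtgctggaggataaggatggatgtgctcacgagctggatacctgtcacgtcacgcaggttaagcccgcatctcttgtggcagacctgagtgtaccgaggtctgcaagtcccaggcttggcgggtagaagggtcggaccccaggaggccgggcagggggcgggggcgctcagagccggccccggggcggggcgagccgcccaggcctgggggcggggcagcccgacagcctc
Notch4 held 3 matches, with first bases at -245, -197 and -73 from the start, and the other 6 promoters held 0. The motif was in 29.5% of 32851 mouse promoters of this length. The RBPJ motif TGGGAA, also searched on both strands, was in 21.6% of them and in 0 of the 7. These are matches of letters.

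Of 63647 barcodes, 58106 had at least 200 genes and 1000 UMIs (unique molecular identifiers, each standing for 1 captured RNA molecule) and were not called as doublets. Libraries held 64958237 to 111826460 UMIs, and human CYP19A1 had 0 UMIs in every WT library and 770, 797 and 787 in the Aromhum libraries. Of the barcode sequences, 471 occurred in more than 1 library. Clusters were named from marker genes with the Notch pathway genes kept out of the clustering, and 16008 cells fell in the 7 types compared: arterial (2137), capillary (5250), venular (2919) and lymphatic (847) endothelial cells, pericytes (1159), smooth muscle cells (858) and MuSCs/myoblasts (2838). Of their own markers, 7 of 8 arterial, 8 of 8 capillary, 6 of 7 venular, 6 of 6 lymphatic and 8 of 8 pericyte, smooth muscle and MuSC/myoblast markers were highest in the type of that name.

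Parts of these types came mostly from Aromhum mice. A pericyte cluster with Serpina1b and H2-M9 among its leading genes, called the Aromhum-rich cluster here, held 142, 140 and 9 cells of Aromhum mice 1, 2 and 3 (67.3, 65.4 and 6.48% of their pericytes) and 4, 1 and 3 cells of the WT mice. A venular cluster led by Csf3 and Ehd3 held 561, 361 and 145 Aromhum cells and 20, 3 and 15 WT cells. Capillary cells were 15.8% ± 2.25 of all cells in WT and 3.68% ± 1.61 in Aromhum mice (SD, n = 3 mice each), for which the 2-sided exact permutation test gave 0.1, the lowest p it allows with 3 against 3.

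Levels are UMIs summed per mouse and type, per 1000000 UMIs of that sum (CPM). Each gene was followed across types, and levels of different genes were not compared. Endothelium, mural cells and MuSCs each held their own combination of ligands, receptors and targets. Dll4, Jag2, Notch1, Notch4 and Hey1 had their highest means in arterial or capillary endothelium. Notch3 was highest in pericytes and smooth muscle cells, which could not be ordered, and Heyl had its highest mean in pericytes, with high levels of both also in MuSCs/myoblasts. Jag1 had its highest mean in smooth muscle cells and Hes1 in lymphatic endothelium. Notch2 had its highest means in macrophages/monocytes and T cells, which could not be ordered.

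**Figure D1:**
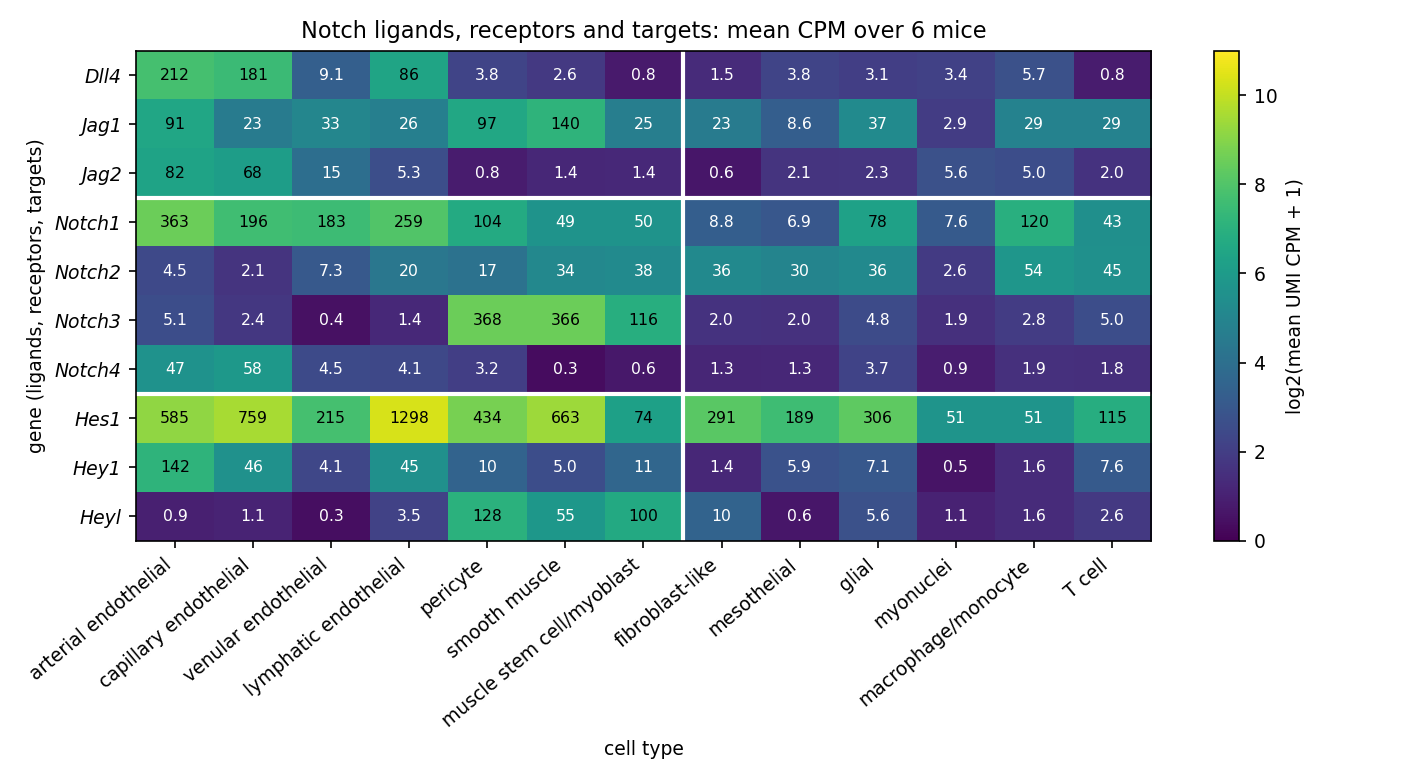
Mean CPM over 6 mice of each member (lines) in each of 13 cell types (columns), printed in the cells, with colour for log2(mean CPM + 1). Dll4, Jag2 and Notch4 stand out in arterial and capillary endothelium, and Notch3 and Heyl in pericytes, smooth muscle cells and MuSCs/myoblasts.

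Dll4, the ligand known from arteries and sprouting tips, was at 212 CPM ± 28.7 in arterial cells (SD, n = 6 mice here and in the levels that follow) and at 181 ± 26.8 in capillary cells, with overlap between the mice. It was at 85.6 ± 22.2 in lymphatic, 9.12 ± 3.07 in venular and 0.752 ± 0.685 in MuSC/myoblast cells. Capillary exceeded lymphatic, and lymphatic exceeded venular cells, in 6 of 6 mice. When each cell was thinned to 1000 UMIs, 20.1% of arterial cells held a Dll4 UMI, and 0.0470% of MuSCs/myoblasts, taken as a type that should lack it, did (59.8% and 0.362% unthinned, at median depths of 5170 and 4160 UMIs). In macrophages/monocytes and T cells, the background types set for this comparison, the thinned shares were 0.469% and 0.0624%.

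Jag2 was likewise high in arterial and capillary cells but, unlike Dll4, not in lymphatic cells, with 82.3 CPM ± 25.01 in arterial, 68.1 ± 9.89 in capillary, 14.8 ± 7.18 in venular and 5.27 ± 1.60 in lymphatic cells, and 0.797 to 1.43 in pericytes, smooth muscle cells and MuSCs/myoblasts. Jag1, in contrast, was shared by artery and vessel wall. It was at 139.6 ± 33.0 in smooth muscle cells, 96.6 ± 28.2 in pericytes and 91.0 ± 15.4 in arterial cells, and at 22.7 ± 7.65 in capillary cells. Smooth muscle cells exceeded pericytes in 6 of 6 mice, and pericytes exceeded arterial cells in 2 of 6.

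Notch1 was found in all 7 types, at 363 CPM ± 57.5 in arterial, 259 ± 26.8 in lymphatic, 196 ± 22.3 in capillary and 183 ± 19.1 in venular endothelium. It was at 104 ± 30.9 in pericytes, 49.6 ± 6.63 in MuSCs/myoblasts and 49.1 ± 11.8 in smooth muscle cells. Notch4, a receptor known mainly from endothelium, was at 57.7 ± 9.67 in capillary and 47.1 ± 6.63 in arterial cells, higher in capillary cells in 6 of 6 mice. In venular (4.49 ± 1.64) and lymphatic cells (4.15 ± 2.09) it was near the pericyte level (3.16 ± 3.18).

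Notch3 had the opposite distribution. Pericytes (368 CPM ± 63.2) and smooth muscle cells (366 ± 44.7) could not be ordered, MuSCs/myoblasts held 117 ± 11.98, and the 4 endothelial types 0.394 to 5.05. With cells thinned to 1000 UMIs, a Notch3 UMI was in 34.2% of smooth muscle cells, 30.7% of pericytes, 11.97% of MuSCs/myoblasts and 0.0330% of venular cells (median depths 4578, 2120, 4160 and 7135 UMIs). Notch2 ran from 2.13 in capillary to 19.6 in lymphatic endothelium and reached 37.6 ± 6.10 in MuSCs/myoblasts and 53.5 ± 6.62 in macrophages/monocytes.

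Among the targets, Hes1 was at 1298 CPM ± 185 in lymphatic, 759 ± 60.9 in capillary, 585 ± 204 in arterial and 215 ± 41.0 in venular endothelium. It was at 663 ± 214 in smooth muscle cells, 434 ± 181 in pericytes and 74.2 ± 15.5 in MuSCs/myoblasts. Hey1, known for arterial identity, was at 142 ± 41.8 in arterial cells, above capillary cells (45.8 ± 9.89) in 6 of 6 mice, and at 44.7 ± 10.5 in lymphatic and 4.07 ± 2.09 in venular cells. Heyl was at 128 ± 45.5 in pericytes, 101 ± 51.5 in MuSCs/myoblasts and 55.5 ± 10.4 in smooth muscle cells, and at 0.342 to 3.47 in the endothelial types.

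Over 13 types the members gave 120 pairs of neighbours in the order of levels. Exact sign-flip permutation tests over 6 mice, 2-sided, gave an unadjusted p of 0.03125, the smallest they allow, for 24 of them. After Benjamini-Hochberg adjustment over the 120, 0 passed (lowest adjusted p = 0.156). With 0.03125 as the smallest p, none could pass unless most of the 120 reached it. The lack of a pass therefore does not show that neighbours were alike. On CPM scaled by TMM factors, 8 of 10 members kept the type with the highest mean. Notch3 was then highest in smooth muscle cells (339.8, and 304 in pericytes) and Heyl in MuSCs/myoblasts (110.2, and 106 in pericytes).

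Members also varied between the clusters of a type, given here for the WT mice as a description. Hes1 was at 992, 1059 and 1013 CPM in the capillary cluster led by Hspa1a and at 432, 335 and 315 in the one led by haemoglobin transcripts (Hba-a1). Notch4 had the reverse order there, at 40.4, 40.5 and 42.4 against 93.7, 54.9 and 70.2. In arterial cells Hey1 was at 209, 253 and 191 CPM in the cluster led by Gdf15 and Alpl and at 59.2, 84.0 and 68.6 in the one led by Cytl1 and Gkn3, whereas Jag1 was at 53.3, 75.8 and 53.1 against 89.4, 169 and 144. Each of these orders held in 3 of 3 mice.

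Outside the pathway, the genes with the most similar pattern were found by the correlation of log2(mean CPM + 10) over 13 types, among 6227 genes that reached 50 CPM in a type. The types share libraries, so r is descriptive. Btnl9, listed below for Dll4 and Hey1, was also a capillary marker used in naming the clusters, so its pattern was partly set by the naming. Prom1 (r = 0.99) and Slc26a10 (0.99) were closest to Notch4, Btnl9 (0.98) and Ccm2l (0.96) to Dll4, and Gm11730 (0.97) and Prom1 (0.97) to Jag2. Serpini1 (0.97) and the sphingosine 1-phosphate receptor S1pr3 (0.92) were closest to Notch3, Rem1 (0.93) and Opa3 (0.87) to Heyl, and Btnl9 (0.91) and Arl15 (0.88) to Hey1. For Hes1 they were Emc4 (0.93) and Syne1 (0.93), for Notch1 Crtc2 (0.92) and Isg15 (0.90), for Notch2 Antxr2 (0.90) and Spg21 (0.89), and for Jag1 Tob2 (0.88) and Arih1 (0.87).

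WT and Aromhum mice were then compared within each type, to ask whether pathway genes differed in the herniated muscle. Hes1 was lower in arterial endothelium and pericytes of Aromhum mice, and Notch1 and Heyl were lower in pericytes. No ligand among the members passed, and no member passed as higher, in this fit, which has no term for the pairing of the mice. With same-numbered mice as pairs (the replicate block), the ligand Jag2 passed in arterial cells and was higher in Aromhum mice, Hey1 in arterial and Hes1 in smooth muscle cells passed as lower, and Notch1 and Heyl in pericytes did not pass. The 3 pericyte calls were lost when the Aromhum-rich cluster was removed and when doublets were kept, with log2 fold changes nearer to 0 for Hes1 and Notch1 but not for Heyl. Of 70 pairs of a member and a type, 48 had enough UMIs for edgeR's quasi-likelihood test on UMIs summed per mouse, 13 had an unadjusted p under 0.05, and 4 passed at an adjusted p under 0.05 (Benjamini-Hochberg over all genes of the type). These were 27.1% and 8.33% of the 48, beside 14.5% and 1.97% over all genes and types. In bulk sums of this kind, fewer expressing cells and less RNA per cell cannot be told apart.

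**Figure D2:**
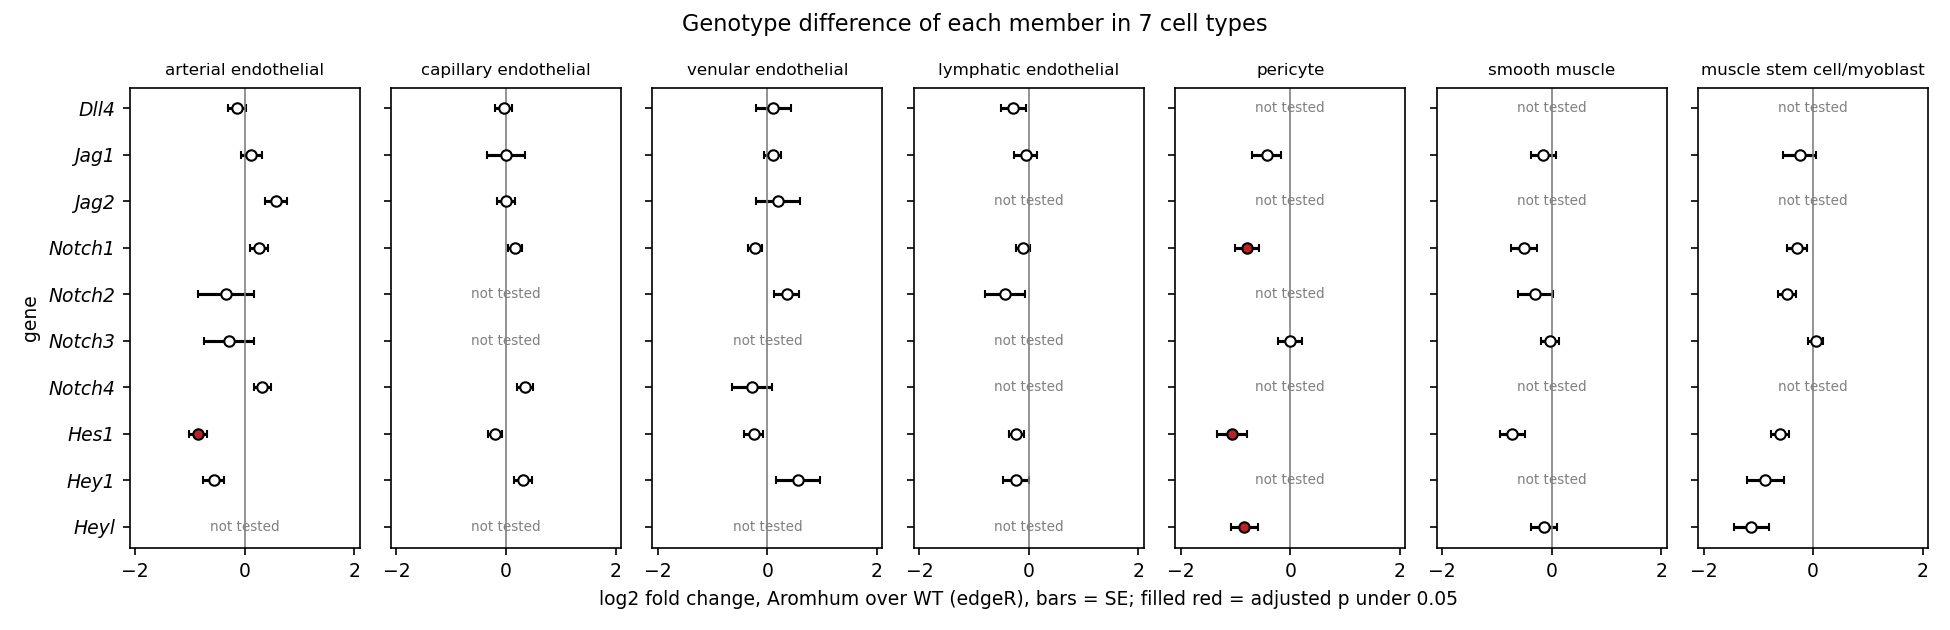
Log2 fold change of Aromhum over WT for each member (lines) in 7 cell types (panels), with bars for the SE of the edgeR fit over 3 and 3 mice and red filling for an adjusted p under 0.05. The 4 red points are Hes1 in arterial endothelium and Notch1, Hes1 and Heyl in pericytes, all below 0.

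In arterial endothelium 1 of 9 members tested passed, beside 0.982% of the 9063 genes tested. Hes1 was at 662, 908 and 681 CPM in WT and at 361, 417 and 483 in Aromhum mice. Every Aromhum mouse lay below every WT mouse, as for 7.87% of the genes tested. The log2 fold change was -0.86 (SE 0.166), 1.81-fold lower, with an edgeR adjusted p of 0.0350. The sign was negative in 17 of 17 alternative analyses, 1 of which left the arterial cells as they were, and 10 passed (adjusted p from 0.000245 to 0.435). The call was lost without WT mouse 1 (-0.92, adjusted p = 0.0692), WT mouse 2 (-0.73, adjusted p = 0.123), Aromhum mouse 1 (-0.73, adjusted p = 0.164) or Aromhum mouse 2 (-0.84, adjusted p = 0.149), where the log2 fold change is given first. It was also lost under the study's limits on cells (-0.68, adjusted p = 0.157), with pathway genes kept in the clustering (-0.61, adjusted p = 0.435) and with cell groups read from the column order (-0.71, adjusted p = 0.252).

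Hes1 was then followed within each arterial cluster. In the Gdf15-led cluster Hes1 was at 884, 1025 and 873 CPM in WT and 624, 652 and 821 in Aromhum mice. It lay below WT without overlap there, as did 4.17% of the genes with a mean of at least 10 CPM. In the Cytl1-led cluster it was at 327, 482 and 448 against 241, 235 and 334, where Aromhum mouse 3 overlapped WT mouse 1. The Gdf15-led cluster, in which Hes1 was higher, made up 62.4, 82.6 and 62.2% of arterial cells in WT and 42.5, 51.1 and 43.4% in Aromhum mice, and the part of this shift in the Hes1 difference was not tested. The summed CPM of 8 fibroblast-like markers in arterial cells was 239.6, 181 and 214 in WT and 449, 499 and 447 in Aromhum mice, also without overlap, and its part was not tested either.

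Hey1 in arterial cells was at 149, 217 and 135 CPM in WT and at 105, 142 and 102 in Aromhum mice. Aromhum mouse 2 lay inside the WT range (log2 fold change -0.57, SE 0.191, edgeR adjusted p = 0.195). Jag2 was at 61.9, 56.8 and 78.1 CPM in WT and at 120.2, 72.1 and 105 in Aromhum mice, with Aromhum mouse 2 again inside the WT range (log2 fold change 0.58, SE 0.200, edgeR adjusted p = 0.205). With the replicate block, which pairs same-numbered mice, both passed in edgeR (Hey1 -0.54, adjusted p = 0.0219, and Jag2 0.55, adjusted p = 0.0347), as did 5.47% of the genes. That was the only 1 of 17 alternatives in which either passed, and adjusted p ran from 0.0219 to 0.887 for Hey1 and from 0.0347 to 0.735 for Jag2. Within each arterial cluster Hey1 overlapped between the genotypes. Jag2 overlapped in the Gdf15-led cluster, at 72.5, 56.1 and 91.6 against 104, 74.3 and 125 CPM, and did not in the Cytl1-led cluster, at 45.8, 59.4 and 61.8 against 128, 70.4 and 95.6 CPM. In the Cytl1-led cluster 10.4% of the genes with a mean of at least 10 CPM lay above WT without overlap.

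Notch4 in arterial cells was at 44.5, 40.3 and 40.2 CPM in WT and at 54.1, 48.1 and 55.5 in Aromhum mice. All Aromhum mice lay above the WT mice, as for 10.5% of the genes tested (log2 fold change 0.33, SE 0.158, edgeR adjusted p = 0.400). The groups were apart in the same direction in both arterial clusters, as were 7.12% of the genes with a mean of at least 10 CPM in the Gdf15-led and 10.4% in the Cytl1-led cluster. Dll4 and Notch1 overlapped, at 178 to 248 and 273 to 431 CPM over the 6 mice. So did the other members tested, and the edgeR log2 fold changes were -0.14 for Dll4 (adjusted p = 0.804), 0.26 for Notch1 (adjusted p = 0.535), 0.13 for Jag1 (adjusted p = 0.843), -0.34 for Notch2 (adjusted p = 0.848) and -0.28 for Notch3 (adjusted p = 0.862). Heyl had too few UMIs for the test.

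**Figure D3:**
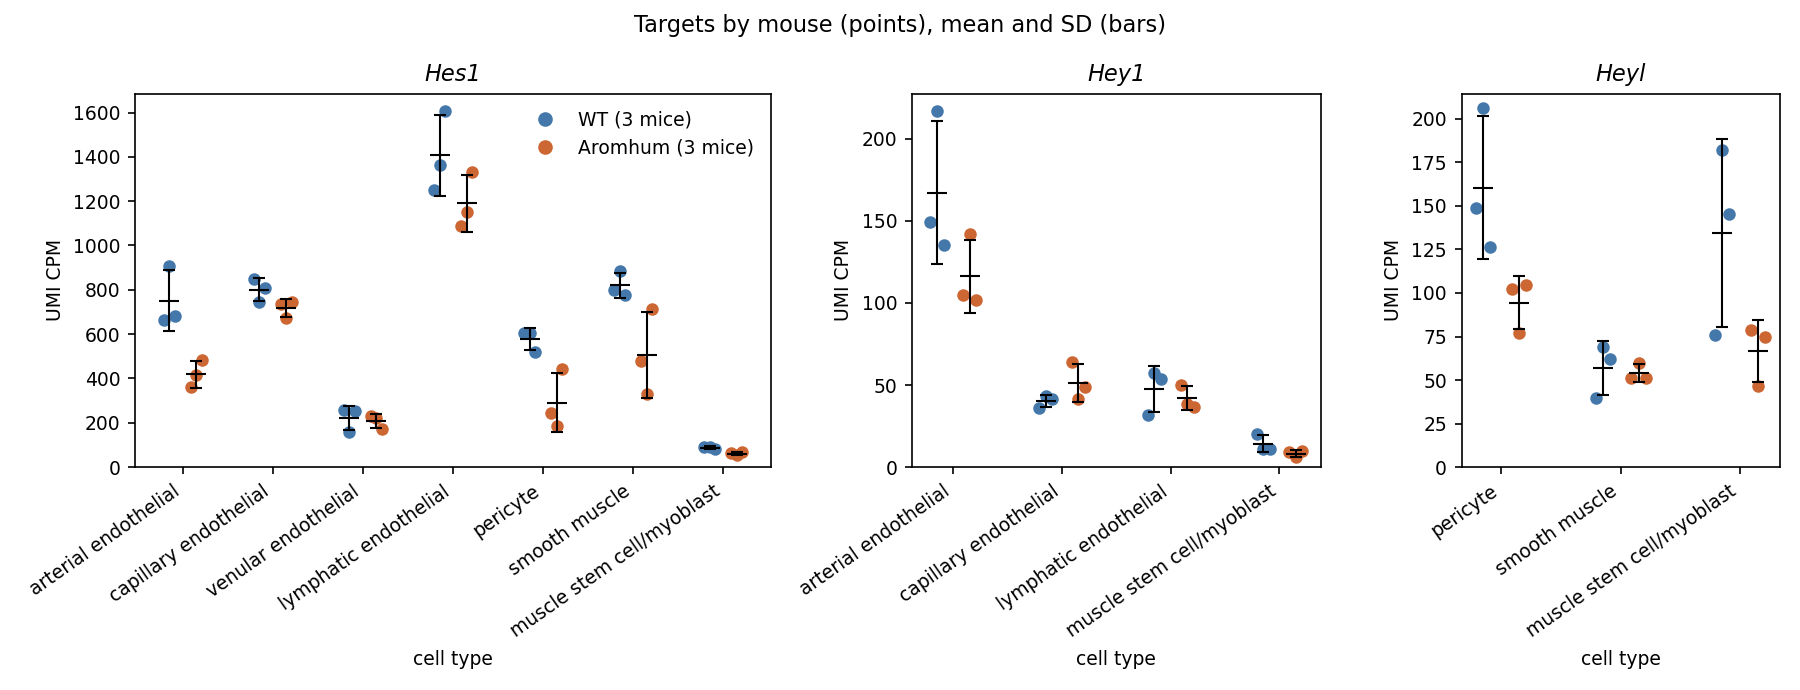
CPM of Hes1, Hey1 and Heyl per mouse (points, by genotype) in the cell types where each was high, with the mean and SD of 3 mice as bars. Hes1 of Aromhum mice lies below WT without overlap in arterial endothelium, pericytes, smooth muscle cells and MuSCs/myoblasts, and overlaps in the other 3 types.

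In pericytes 3 of 5 members tested passed, beside 10.3% of the 5606 genes tested. Hes1 was at 605, 607 and 520.4 CPM in WT and at 244, 186 and 441 in Aromhum mice (log2 fold change -1.07, SE 0.274, edgeR adjusted p = 0.0261). Notch1 was at 115, 149 and 121 against 77.7, 65.1 and 93.6 CPM (log2 fold change -0.79, SE 0.227, edgeR adjusted p = 0.0411). Heyl, a target known from mural cells, was at 149, 206 and 126 against 102, 77.3 and 104 CPM (log2 fold change -0.84, SE 0.246, edgeR adjusted p = 0.0439). None of the 3 overlapped between the genotypes, beside 29.1% of the genes tested that did not, and an unadjusted p under 0.05 was found for 27.4% of the genes. Aromhum mouse 3, with few cells of the Aromhum-rich cluster, was the Aromhum mouse nearest to WT in each.

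Without the Aromhum-rich cluster none of the 3 passed, and 0.0484% of 4135 genes did. Hes1 was then at 639, 612 and 545 CPM in WT and 522, 426 and 525 in Aromhum mice, still apart (-0.32, edgeR adjusted p = 0.683). Notch1 overlapped, at 124, 150.3 and 128 against 109, 192 and 113 (-0.08, adjusted p = 0.972). Heyl was at 155, 208 and 134 against 50.5, 92.0 and 109.7, apart and with a fold change no smaller than before (-0.94, adjusted p = 0.286), on 6, 11 and 33 Heyl UMIs in the Aromhum mice. The share of all genes without overlap in these remaining pericytes was not measured. In the removed cluster Hes1 was at 197 and 139 CPM in Aromhum mice 1 and 2. The 2 clusters that remained differed. In the one led by Ccl2 Hes1 was at 743, 683 and 602 against 537, 409.8 and 547 CPM, without overlap, and in the one led by Art3 at 378, 523 and 418 against 475, 526 and 495, with overlap. In the Art3-led cluster Aromhum mice 1 and 2 had 22 and 12 cells with 14 and 9 Hes1 UMIs. Heyl was at 98.7, 140 and 98.3 against 22.4, 68.3 and 73.3 CPM in the Ccl2-led cluster, without overlap. In the Art3-led cluster Heyl was at 296, 292 and 214 against 136, 234 and 162, with overlap. The Art3-led cluster held 57, 144 and 62 WT cells and 22, 12 and 60 Aromhum cells. The Ccl2-led cluster held 106, 133 and 85 and 47, 62 and 70. The part of these numbers in the Heyl difference was not tested. Notch1 overlapped in the Ccl2-led cluster. It did not in the Art3-led cluster, at 106, 121 and 125 against 0, 58.4 and 56.8 CPM, on 0, 1 and 7 Aromhum UMIs. Of genes with a mean of at least 10 CPM, 5.11% in the Ccl2-led and 6.73% in the Art3-led cluster lay below WT without overlap.

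**Figure D4:**
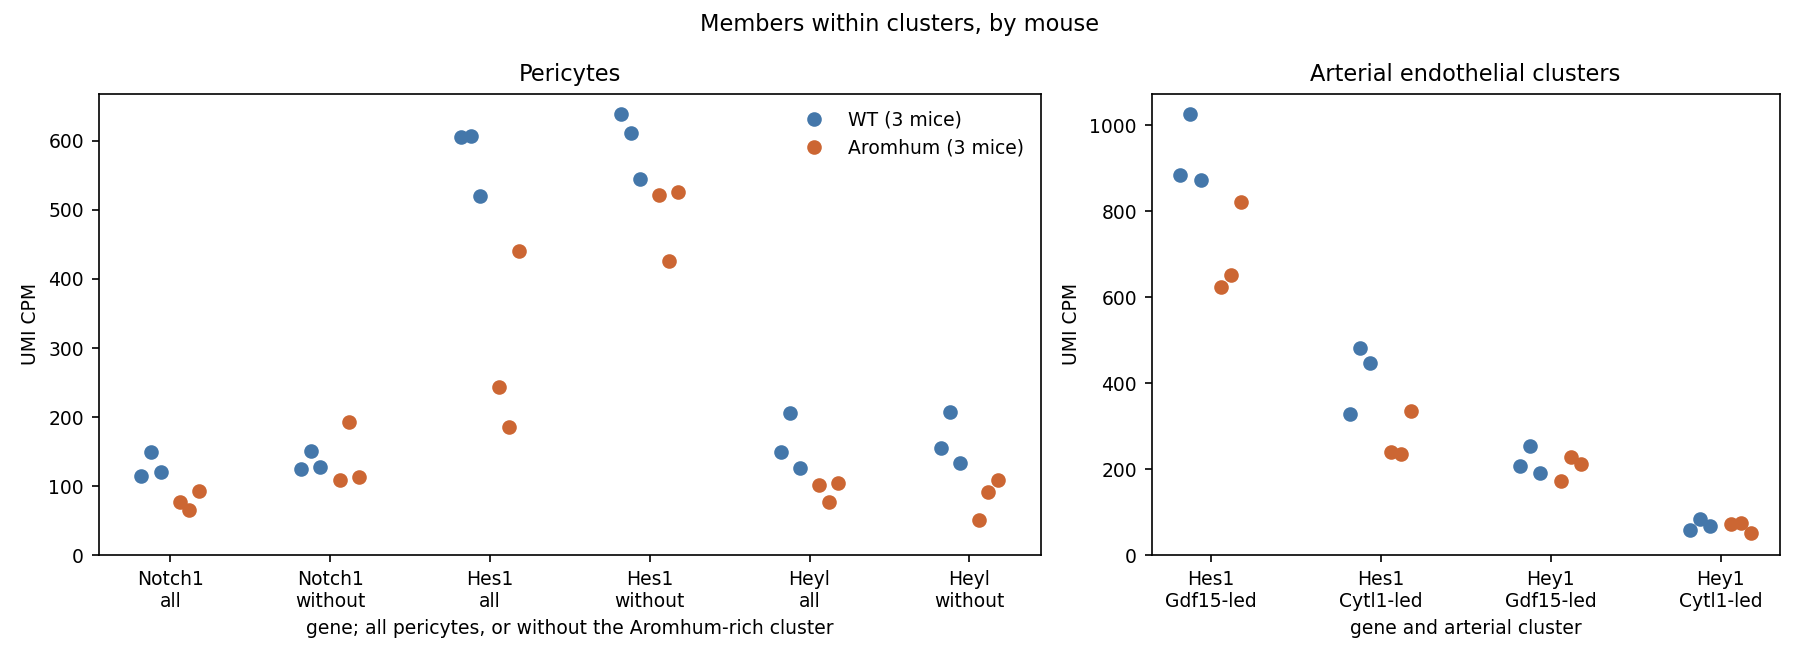
CPM per mouse, by genotype, of Notch1, Hes1 and Heyl in all pericytes and without the Aromhum-rich cluster (left), and of Hes1 and Hey1 in the arterial clusters led by Gdf15 and by Cytl1 (right). Without the Aromhum-rich cluster Hes1 of the Aromhum mice is at 426 to 525 CPM, below WT, Notch1 overlaps and Heyl remains below WT.

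Other measures moved with the pericyte values. Median UMIs per pericyte were 1678, 1912 and 2098 in WT and 3990, 3580 and 2125 in Aromhum mice. The summed CPM of 8 endothelial markers in pericytes was 602, 654 and 605 against 378, 299.6 and 479, and that of 8 fibroblast-like markers 1176, 1145 and 1435 against 3730, 3228 and 2780. The median mitochondrial share of a cell's UMIs was 9.99, 13.7 and 8.40% against 7.28, 7.25 and 7.99%. None of these overlapped, and their part in the results was not tested. With the replicate block Notch1 (log2 fold change -0.78, edgeR adjusted p = 0.0698) and Heyl (-0.83, adjusted p = 0.0708) did not pass. Of 17 alternatives each, 9 passed for Hes1 (adjusted p from 7.88e-06 to 0.7997), 6 for Notch1 (0.00381 to 0.999) and 7 for Heyl (0.00572 to 0.591). With doublets kept none of the 3 passed (adjusted p = 0.7997, 0.999 and 0.445 for Hes1, Notch1 and Heyl), nor with cell groups read from the column order (0.691, 0.879 and 0.591). The log2 fold changes of Hes1, Notch1 and Heyl were -0.25, -0.00300 and -0.90 with doublets kept. With the column order they were -0.44, -0.20 and -0.88, so that of Heyl was no smaller in either. In DESeq2 Notch1 (-0.73, adjusted p = 0.248) and Heyl (-0.78, adjusted p = 0.186) did not pass, nor did Notch1 without a filter on low counts (-0.71, adjusted p = 0.0732) or Heyl without cells carrying markers of the neighbouring lineage (-0.80, adjusted p = 0.0629). Leaving out WT mouse 1 or 2 or Aromhum mouse 1 or 2 ended all 3 calls (adjusted p without WT mouse 1 0.108, 0.0928 and 0.108, without WT mouse 2 0.132, 0.201 and 0.240, without Aromhum mouse 1 0.135, 0.1498 and 0.124, and without Aromhum mouse 2 0.115, 0.181 and 0.191 for Hes1, Notch1 and Heyl). The log2 fold changes in these 4 fits were -1.04 to -0.82 for Hes1, -0.86 to -0.65 for Notch1 and -0.92 to -0.59 for Heyl. Leaving out WT mouse 3 ended those of Hes1 (-1.14, adjusted p = 0.0585) and Notch1 (-0.84, adjusted p = 0.0805).

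Notch3, whose level was highest in mural cells, overlapped between the genotypes. In pericytes it was at 264, 411 and 409.6 CPM in WT and at 317, 392 and 417 in Aromhum mice (log2 fold change -0.01, SE 0.221, edgeR adjusted p = 0.988). In smooth muscle cells it was at 342, 418 and 325 against 375, 417 and 318 CPM (log2 fold change -0.03, SE 0.164, edgeR adjusted p = 0.977). Jag1 also overlapped in pericytes (log2 fold change -0.43, SE 0.266, edgeR adjusted p = 0.314) and in smooth muscle cells (log2 fold change -0.15, SE 0.222, edgeR adjusted p = 0.859). Within 2 of the smooth muscle clusters Notch3 did not overlap, in opposite directions. In the cluster led by Txndc11 it was at 359, 276 and 401 CPM in WT and 465, 512 and 437 in Aromhum mice, and in the one led by Ptgis at 261, 331 and 246 against 193, 188 and 158. These clusters held 47 to 78 and 21 to 60 cells per mouse, 10.3% of the genes with a mean of at least 10 CPM lay above WT without overlap in the first and 4.3% below in the second, and they were not tested. Dll4, Jag2, Notch2, Notch4 and Hey1 in pericytes had too few UMIs for the test.

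In smooth muscle cells 0 of 6 members tested passed in edgeR and 0 in DESeq2, beside 0.875% of 6512 genes in edgeR, and 2 had an unadjusted p under 0.05 (10.3% of all genes did). Hes1 was at 800, 886 and 775 CPM in WT and at 477, 328 and 712 in Aromhum mice. All 3 Aromhum mice lay below WT, as for 5.76% of the genes tested (log2 fold change -0.72, SE 0.228, edgeR adjusted p = 0.219). Fibroblast-like markers summed to 1001, 811 and 772 CPM in WT and 1387, 2272 and 1193 in Aromhum mice here, and the median mitochondrial share was 11.98, 14.6 and 12.7% and 11.7, 10.6 and 11.8%, both without overlap, and their part was not tested. With the replicate block Hes1 passed (-0.79, adjusted p = 0.0409), as did 1.69% of the genes. It also passed without Aromhum mouse 3 (-1.11, adjusted p = 0.00418) and without a filter on low counts (0.00502), and over 17 alternatives adjusted p ran from 0.00418 to 0.603. Heyl was at 39.5, 68.9 and 62.2 against 51.1, 59.9 and 51.2 CPM. Notch1 was at 49.3, 52.9 and 65.7 against 36.2, 55.1 and 35.04 CPM, with Aromhum mouse 2 inside the WT range (log2 fold change -0.51, SE 0.234, edgeR adjusted p = 0.463). Notch2 and Heyl overlapped, with edgeR log2 fold changes of -0.30 for Notch2 (adjusted p = 0.795) and -0.14 for Heyl (adjusted p = 0.875). Dll4, Jag2, Notch4 and Hey1 had too few UMIs for the test. In the Txndc11-led cluster Hes1 was at 956, 1154 and 882 CPM in WT and 489, 338.5 and 662 in Aromhum mice. In the Ptgis-led cluster it was at 1038, 1398 and 1099 against 601, 443 and 917. It lay below WT without overlap in both, as did 5% and 4.3% of the genes with a mean of at least 10 CPM. Notch1 and Heyl did so too in the Ptgis-led cluster, on 1 to 4 and 3 to 16 UMIs per Aromhum mouse. In the cluster led by Pln Hes1 was at 262, 348.5 and 480.5 against 181 and 332 in Aromhum mice 2 and 3, with overlap. Aromhum mouse 1 had 9 cells there. The Pln-led cluster made up 22.4, 48.2 and 21.0% of smooth muscle cells in WT and 8.82, 14.2 and 20.5% in Aromhum mice. The part of this shift in the Hes1 difference was not tested. A cluster led by Ogn had 8, 6 and 5 Aromhum cells, too few for a level. The clusters were not tested.

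In MuSCs/myoblasts 0 of 7 members tested passed in edgeR, beside 2.45% of 8138 genes, 4 had an unadjusted p under 0.05 (21.7% of all genes did), and Heyl passed in DESeq2 (adjusted p = 0.0294). The 4 were the 3 targets and Notch2, all with negative fold changes. Of all genes tested, 8.96% lay below WT without overlap. Hes1 was at 92.3, 88.9 and 79.9 CPM in WT and at 63.3, 52.5 and 68.3 in Aromhum mice, without overlap (log2 fold change -0.61, SE 0.166, edgeR adjusted p = 0.0823). Hey1 was at 20.4, 11.1 and 11.3 against 9.04, 5.98 and 9.84 CPM, without overlap (log2 fold change -0.88, SE 0.339, edgeR adjusted p = 0.176). Notch2 was at 36.5, 45.8 and 44.4 against 31.9, 35.03 and 31.8 CPM, without overlap (log2 fold change -0.47, SE 0.160, edgeR adjusted p = 0.130). Notch3 overlapped, at 95.0, 121 and 115 against 119, 132 and 118 CPM (log2 fold change 0.05, SE 0.141, edgeR adjusted p = 0.886). Jag1 and Notch1 overlapped too, with edgeR log2 fold changes of -0.24 for Jag1 (adjusted p = 0.696) and -0.29 for Notch1 (adjusted p = 0.397). Dll4, Jag2 and Notch4 had too few UMIs for the test.

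Heyl in MuSCs/myoblasts was at 75.7, 182 and 145 CPM in WT and at 79.0, 46.6 and 74.7 in Aromhum mice. WT mouse 1 lay among the Aromhum mice, and WT mice 2 and 3 lay above them (log2 fold change -1.13, SE 0.321, edgeR adjusted p = 0.0892). Without WT mouse 1 Heyl passed (-1.42, adjusted p = 0.0349), and 3 of 18 alternatives did (adjusted p from 0.0289 to 0.665). Hes1 passed in 2 of 18 alternatives (adjusted p from 0.0178 to 0.248), 1 of them without Aromhum mouse 3 (0.0178). The summed CPM of fibroblast-like markers in these cells was 1283, 1070 and 1076 in WT and 3036, 4032 and 1850 in Aromhum mice, and its part in the results was not tested.

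In capillary cells 0 of 7 members tested passed in edgeR and 0 in DESeq2, beside 0.336% of 9811 genes in edgeR, and 1 had an unadjusted p under 0.05 (6.99% of all genes did). This was Notch4, at 54.1, 46.8 and 50.6 CPM in WT and at 58.3, 62.5 and 73.9 in Aromhum mice, with all Aromhum mice above WT, as for 9.44% of the genes tested (log2 fold change 0.34, SE 0.143, edgeR adjusted p = 0.635). Hes1 was at 848, 745 and 807 against 736, 673 and 746 CPM, with Aromhum mouse 3 just above WT mouse 2 (log2 fold change -0.20, SE 0.124, edgeR adjusted p = 0.812). Dll4 was at 219, 167 and 153 against 189, 201 and 154 CPM (log2 fold change -0.05, SE 0.161, edgeR adjusted p = 0.992). Hey1 was at 35.9, 43.1 and 41.7 against 64.2, 41.2 and 48.8 CPM and overlapped (log2 fold change 0.30, SE 0.165, edgeR adjusted p = 0.777). The other 3 members tested overlapped, with edgeR log2 fold changes of -0.000274 for Jag1 (adjusted p = 1.000), -0.00297 for Jag2 (adjusted p = 1.000) and 0.17 for Notch1 (adjusted p = 0.872). Notch2, Notch3 and Heyl had too few UMIs for the test.

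In venular cells 0 of 8 members tested passed in edgeR and 0 in DESeq2, beside 1.52% of 9206 genes in edgeR, and 0 had an unadjusted p under 0.05 (18.8% of all genes did). Hes1 overlapped, at 257, 160 and 251 against 230, 222 and 170.4 CPM, and without the cluster led by Csf3 and Ehd3 it still overlapped. Notch2 was at 6.60, 5.52 and 6.11 against 7.74, 8.77 and 9.31 CPM, above WT in all 3 Aromhum mice, as for 22.3% of the genes tested (log2 fold change 0.35, SE 0.232, edgeR adjusted p = 0.447). The other members tested overlapped, with edgeR log2 fold changes of 0.11 for Dll4 (adjusted p = 0.887), 0.10 for Jag1 (adjusted p = 0.778), 0.20 for Jag2 (adjusted p = 0.824), -0.23 for Notch1 (adjusted p = 0.393), -0.28 for Notch4 (adjusted p = 0.715) and 0.56 for Hey1 (adjusted p = 0.485). Notch3 and Heyl had too few UMIs for the test. In lymphatic cells 0 of 6 members passed in edgeR and 0 in DESeq2, beside 0.0528% of 7573 genes in edgeR, and 0 had an unadjusted p under 0.05 (6.44% of all genes did). Hes1 was at 1249, 1363 and 1608 against 1087, 1151 and 1332 CPM there, with Aromhum mouse 3 inside the WT range (log2 fold change -0.23, SE 0.135, edgeR adjusted p = 0.793). Dll4 overlapped as well, at 104, 74.1 and 106 against 97.1, 48.0 and 83.6 CPM, and so did the other members tested, with edgeR log2 fold changes of -0.28 for Dll4 (adjusted p = 0.859), -0.06 for Jag1 (adjusted p = 0.994), -0.11 for Notch1 (adjusted p = 0.910), -0.44 for Notch2 (adjusted p = 0.860) and -0.23 for Hey1 (adjusted p = 0.897). Jag2, Notch3, Notch4 and Heyl had too few UMIs for the test. Of all genes, only 4 passed in lymphatic cells, each higher in Aromhum mice. The smallest p were those of Pnoc (log2 fold change 5.37), Postn (2.19) and Hilpda (1.16). The lower genes with the smallest p were Gm14964 (-1.04), Gsn (-1.23) and AC160336.1 (-0.84). The study lists Pnoc for its Esr1-high and Postn for its Mmp3-high fibroblast cluster, and Gsn was a fibroblast-like marker here. Fibroblast-like markers in lymphatic cells summed to 4589, 2687 and 1368 CPM in WT and 1392, 1998 and 1068 in Aromhum mice. These sums overlapped, and their part was not tested.

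Whether the genotype difference itself differed between types was tested as an interaction in edgeR with the mouse as a block. Between arterial and capillary cells 0 of 9 members passed, beside 0.748% of 10033 genes, and 3 had an unadjusted p under 0.05 (10.4% of the genes did). Hey1 (-0.89, SE 0.213, adjusted p = 0.0570), Hes1 (-0.65, SE 0.157, adjusted p = 0.0575) and Jag2 (0.61, SE 0.168, adjusted p = 0.109) had the lowest p among them, where each value is the log2 fold change in arterial minus that in capillary cells. In the fits of the single types these fold changes were, for Hey1, -0.57 and 0.30, of opposite sign, and for Hes1 -0.86 and -0.20. Hes1 passed with limma voom (adjusted p = 0.0395), without WT mouse 1 (0.0484) and without Aromhum mouse 3 (0.0191), and its adjusted p reached 0.295. Hey1 passed without WT mouse 3 (0.0319), and its adjusted p reached 0.343.

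Between MuSCs/myoblasts and capillary cells 0 of 10 members passed in edgeR or limma voom, beside 0.518% of 10035 genes in edgeR, and 2 had an unadjusted p under 0.05 (12.5% of the genes did). They were Hey1 (-1.08, SE 0.369, adjusted p = 0.232 in edgeR) and Notch2 (-1.39, SE 0.614, adjusted p = 0.363 in edgeR). Notch2 had too few UMIs for the test in capillary cells alone. Between pericytes and smooth muscle cells 0 of 6 passed in edgeR or limma voom, beside 1.58% of 7418 genes in edgeR, and 0 had an unadjusted p under 0.05 in edgeR (14.1% of the genes did). Heyl was at -0.64, SE 0.307, adjusted p = 0.356. Hes1 was at -0.29, SE 0.188, adjusted p = 0.525 for that pair. With all 6 mice, edgeR thus did not show for any member that its genotype effect differed between the types of a pair.

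Outside the 7 types, Hes1 was also lower in Aromhum mice without overlap in fibroblast-like cells, at 286, 356 and 431 CPM in WT and at 216, 220.2 and 236 in Aromhum mice. In glial cells it was at 364, 332 and 387 against 249.8, 209 and 293 CPM, and in macrophages/monocytes at 74.5, 56.0 and 110.3 against 22.4, 18.7 and 26.6, again without overlap. It overlapped in mesothelial cells (170.4, 219 and 339.8 against 108, 94.4 and 202), myonuclei (45.9, 78.1 and 31.2 against 49.1, 61.7 and 40.7) and T cells (58.9, 43.0 and 361 against 107, 95.3 and 24.6), the last on few UMIs. These 6 types were not tested. The clusters of fibroblast-like cells held unequal shares of the genotypes, from 41.5 to 95.6% Aromhum cells, and in each of the 6 clusters with at least 20 cells of every mouse Hes1 of all Aromhum mice lay below WT. The share of all genes that did so within these clusters was not measured, and the clusters share the same 6 libraries. The remaining cluster held 118, 1 and 9 WT cells and 1029, 1743 and 25 Aromhum cells. Hes1 there was at 102 CPM in WT mouse 1 and at 161, 162 and 87.6 in the Aromhum mice. Of all genes with a mean of at least 10 CPM, 13.1% lay below WT without overlap in fibroblast-like, 4.94% in glial and 6.94% in macrophage/monocyte cells. The log2 fold change of Hes1 was negative in 7 of the 7 types that were tested, as was that of 5.5% of the 4694 genes tested in all of them, and the types share the same 6 libraries.

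Immediate early and heat shock genes moved beside Hes1 in some types. The summed CPM of 10 of them (Fos, Fosb, Jun, Junb, Egr1, Atf3, Ier2, Hspa1a, Hspa1b and Dnajb1, chosen after values were seen) was 22320, 23790 and 21280 in arterial cells of WT and 15450, 16250 and 17710 of Aromhum mice. It was 25070, 17580 and 16110 against 11280, 7457 and 13460 in pericytes and 7843, 7517 and 6182 against 3978, 3369 and 5174 in MuSCs/myoblasts. These sums did not overlap, nor did those of venular cells, where Hes1 overlapped. In smooth muscle cells, where Hes1 did not overlap, the sums did, at 17790, 17150 and 15130 against 14300, 12750 and 16380, as they did in capillary and lymphatic cells. The sums hid genes that went otherwise. In arterial cells Fosb was at 917, 838.5 and 930 CPM in WT and 1082, 1237 and 1280 in Aromhum mice, higher without overlap. In capillary cells Hspa1a was at 1603, 1673 and 1949 against 989, 955 and 663.5, lower without overlap, as Hspa1b was in capillary and lymphatic cells. The part of the 10 genes in the Hes1 difference was not tested.

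Of 51 other genes of the pathway, 48 were in the table and 42 could be tested in a type. Of their 210 pairs of a gene and a type, 33 had an unadjusted p under 0.05 and 2 passed in edgeR, both lower in Aromhum mice. These were 15.7% and 0.952%, beside the 14.5% and 1.97% over all genes. Dll1, another Delta-like ligand, fell in venular cells from 85.3 CPM ± 6.28 to 55.0 ± 6.68 (SD, n = 3 mice each, log2 fold change -0.77, SE 0.140, adjusted p = 0.0304), and did not pass without the cluster led by Csf3 and Ehd3 (-0.43, adjusted p = 0.267). Fibroblast-like markers in venular cells summed to 178, 139.8 and 137 CPM in WT and 309, 247 and 331 in Aromhum mice, without overlap, and their part was not tested. Egfl7, a secreted factor of endothelial cells that binds Notch, was at 45.1 CPM ± 10.1 in WT and 10.4 ± 6.01 in Aromhum pericytes (log2 fold change -2.29, SE 0.415, adjusted p = 0.00421), and did not pass without the Aromhum-rich cluster (-1.26, adjusted p = 0.474). Summed endothelial markers in these pericytes, given above, were lower in Aromhum mice too.

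Nrarp, a target and feedback inhibitor of the pathway, was at 237 CPM in smooth muscle, 155 in capillary and 100.4 in arterial cells. In arterial cells it was at 112 ± 10.9 in WT and 89.1 ± 5.50 in Aromhum mice (log2 fold change -0.35, SE 0.153, edgeR adjusted p = 0.326). It lay below WT without overlap there, as for 7.87% of the genes tested. In pericytes it was at 109.5 ± 26.5 and 54.4 ± 34.0, with overlap (log2 fold change -1.17, SE 0.378, edgeR adjusted p = 0.0636). Without the Aromhum-rich cluster Nrarp was at 115 ± 26.2 and 69.1 ± 24.7 in pericytes, with overlap. Hey2, a relative of Hey1, was at 45.3 ± 3.26 and 30.2 ± 5.00 in smooth muscle cells (log2 fold change -0.66, SE 0.242, edgeR adjusted p = 0.338). It lay below WT without overlap, as for 5.76% of the genes tested there. Rbpj was at 28.0 to 67.7 CPM over the 7 types and did not pass in any, with 40.6 ± 7.60 in WT and 61.1 ± 2.47 in Aromhum pericytes (log2 fold change 0.55, SE 0.253, edgeR adjusted p = 0.180). Without the Aromhum-rich cluster Rbpj was at 37.4 ± 9.81 and 46.2 ± 15.3 in pericytes, with overlap.

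The fringe enzyme Mfng, which modifies receptors, was at 79.2 CPM in capillary, 52.8 in arterial and 34.7 in venular cells and at 1.15 to 1.95 in the other 4 types. Lfng was at 0.232 to 8.90, Mib1, a ligase needed by ligand-bearing cells, at 35.7 to 64.5, and Adam10, a protease that cuts the receptors, at 20.6 to 149 CPM. None of these 4 genes passed in a type. The median log2 fold change over tested members was -0.14, -0.000274, 0.10, -0.23, -0.79, -0.23 and -0.47 in arterial, capillary, venular, lymphatic, pericyte, smooth muscle and MuSC/myoblast cells in this order. Over the other pathway genes it was 0.05, 0.15, 0.12, 0.06, 0.18, -0.14 and 0.17, and over all genes tested -0.01, -0.00466, 0.02, -0.00344, 0.01, 4.56e-05 and 0.00443. These medians cover only the genes with enough UMIs.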

How the data were processed

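Single cells of LAM from 3 WT and 3 Aromhum mice were measured. The deposited table holds raw UMI counts per gene and barcode, which the authors made with Cell Ranger 3.0.2 on the mm10 genome with human CYP19A1 added. Genotypes came from the sample labels. The members and gene lists were chosen with earlier results of these data known.

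Barcodes under 200 genes or 1000 UMIs (4420) and doublets called by Scrublet (1121, none of them in WT mouse 3, where the caller cannot be taken to have worked) were removed. Cells were clustered in scanpy 1.11.5 (2000 variable genes without the Notch pathway genes, 30 components, Leiden resolution 0.8), and clusters were named from marker lists. The limits for naming (15%, 25% and 80%) were set after seeing the data, and types rebuilt in this way may differ from the study's. UMI counts were summed per mouse and type (at least 20 cells per mouse) and tested with edgeR 4.0.16 (R 4.3.3, TMM, filterByExpr, quasi-likelihood test, Benjamini-Hochberg over all genes). DESeq2 1.42.0 and limma voom 3.58.1 were alternatives, beside other filters, cell limits, clusterings and the omission of each mouse. The fits were also run on simulated data with 200 changed genes, and the outcome is not given here. The p-values of the fits set a difference against the spread between the mice sampled.

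Same-numbered WT and Aromhum mice were checked for pairing. The study processed 1 littermate pair per date, and over the types the mean correlations of their deviations were 0.267, 0.133 and 0.282, all above 0.1, although single types (lymphatic cells, pericytes, smooth muscle cells) fell below it. The correlations were 0.138, -0.101 and -0.0635 in pericytes and 0.0921, 0.0442 and 0.246 in smooth muscle cells. In pericytes the highest was between WT mouse 2 and Aromhum mouse 3 (0.157). Over the types together this counts as pairing under the rule set for it, but pericytes alone did not show it. The main fit, fixed earlier, has no block, so all counts and shares are without it, and values with the replicate block are given where they change a call. All members were named in every type. Other pathway genes were named where called, or from a short list whatever their values, and the 2 genes closest to each member by correlation were named. Where fewer than 5 genes were called in a type, the 3 with the smallest p in each direction were named.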

Additional observations from a re-analysis of the deposited data

Results flagged for a closer look

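Heyl differed between the genotypes in opposite directions in a pair of cell types, without overlap in either. In fibroblast-like cells it was at 3.94, 6.39 and 8.81 CPM in the WT mice and at 16.8, 14.5 and 11.6 in the Aromhum mice, with means of 6.38 ± 2.43 and 14.3 ± 2.59 (SD, n = 3 mice each), so that every Aromhum mouse was higher, as for 26.9% of the genes with a mean of at least 10 CPM there. In pericytes it was at 149, 206 and 126 in WT and 102, 77.3 and 104 in Aromhum mice, so that every Aromhum mouse was lower, as for 12.1% of the genes tested there. Heyl passed in pericytes in the edgeR fit without the replicate block (log2 fold change -0.84), but not with it (-0.83), in DESeq2 (-0.78) or without the Aromhum-rich cluster (-0.94). The difference between the 2 types was not tested. Fibroblast-like cells of the genotypes were spread differently over clusters, and a cluster where Heyl was higher than in the others made up 11.8, 7.32 and 8.33% of the WT and 31.4, 27.7 and 21.1% of the Aromhum cells of this type (mice 1, 2 and 3). Within that cluster Heyl was at 10.7, 18.1 and 30.2 CPM against 32.7, 31.0 and 31.7, without overlap, and it overlapped in the other 5 clusters with at least 20 cells of every mouse. The share of all genes without overlap in that cluster was not measured.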

How the results depend on the processing

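The number of genes called per type, 89 in arterial, 33 in capillary, 140 in venular, 4 in lymphatic, 580 in pericyte, 57 in smooth muscle and 199 in MuSC/myoblast cells, moved by more than 1.5 times under many alternatives. With DESeq2 it was 157 in arterial, 363 in venular, 15 in lymphatic and 327 in pericyte cells. Without a filter on low counts it was 432 in arterial, 127 in capillary, 586 in venular, 120 in lymphatic, 1078 in pericyte, 198 in smooth muscle and 495 in MuSC/myoblast cells. With the replicate block it was 496 in arterial, 171 in capillary, 615 in venular, 22 in lymphatic, 110 in smooth muscle and 534 in MuSC/myoblast cells. With doublets kept it was 143 in capillary, 1 in lymphatic, 0 in pericyte and 29 in smooth muscle cells. Under the study's limits on cells it was 0 in arterial, 113 in capillary, 4 in venular, 2 in lymphatic and 34 in MuSC/myoblast cells. With cells of at most 20% mitochondrial UMIs it was 152 in capillary, 1 in lymphatic and 24 in smooth muscle cells. At a clustering resolution of 1.2 it was 191 in capillary cells. With pathway genes kept in the clustering it was 2 in arterial and 177 in capillary cells. With cell groups read from the order of the deposited columns it was 10 in arterial, 227 in capillary, 0 in pericyte, 102 in smooth muscle and 302 in MuSC/myoblast cells. Without cells carrying markers of the neighbouring lineage it was 73 in venular and 116 in MuSC/myoblast cells. Without the 2 clusters that came mostly from Aromhum mice it was 24 in venular and 2 in pericyte cells. The last 3 of these settings were chosen after seeing the data. The interaction of MuSC/myoblast and capillary cells called 102 genes with limma voom, against 52 with edgeR. Leaving out 1 mouse gave 3 to 165 genes in arterial, 12 to 34 genes in capillary, 4 to 1177 genes in venular, 1 to 9 genes in lymphatic, 101 to 1786 genes in pericyte, 8 to 155 genes in smooth muscle and 0 to 886 genes in MuSC/myoblast cells, and 15 to 107, 3 to 220 and 41 to 497 for the interactions of arterial and capillary, MuSC/myoblast and capillary, and pericyte and smooth muscle cells. Of 288 member results with 1 mouse left out, 240 kept their direction and their side of the threshold, 18 lost and 3 gained a call, and 27 changed sign. Of 538 member results under the other alternatives, 490 kept both, 18 lost and 7 gained a call, and 23 changed sign, each of a member that was not called. The log2 fold change turned for Dll4 in arterial cells to 0.0275 (the study's limits), Jag1 in arterial cells to -0.31 (pathway genes kept) and -0.36 (column-order groups), Jag1 in capillary cells to 0.001 (RLE factors), 0.0164 (column-order groups) and 0.0667 (no cells with neighbouring markers) and Jag2 in capillary cells to 0.0206 (column-order groups) and 0.0045 (no cells with neighbouring markers). It also turned for Hey1 in capillary cells to -0.30 (column-order groups), Dll4 in venular cells to -0.002 (column-order groups), -0.13 (no cells with neighbouring markers) and -0.48 (the 2 clusters removed), Jag1 in venular cells to -0.0194 (the study's limits) and -0.0825 (no cells with neighbouring markers) and Notch3 in pericyte cells to 0.0394 (DESeq2), 0.0621 (no filter), 0.0217 (the replicate block), 0.0991 (doublets kept), 0.0025 (pathway genes kept), 0.15 (column-order groups) and 0.0476 (the 2 clusters removed). It also turned for Notch3 in smooth muscle cells to 0.002 (no cells with neighbouring markers) and Heyl in smooth muscle cells to 0.0574 (column-order groups). Leaving out 1 mouse turned Dll4 in capillary cells (-0.15 to 0.12), Dll4 in venular cells (-0.39 to 0.34), Jag1 in capillary cells (-0.64 to 0.20), Jag1 in smooth muscle cells (-0.32 to 0.0897), Jag2 in capillary cells (-0.15 to 0.12), Jag2 in venular cells (-0.22 to 0.81), Notch2 in arterial cells (-1.06 to 0.10), Notch2 in lymphatic cells (-0.63 to 0.15), Notch3 in arterial cells (-0.60 to 0.14), Notch3 in MuSC/myoblast cells (-0.0582 to 0.13), Notch3 in pericyte cells (-0.19 to 0.11), Notch3 in smooth muscle cells (-0.10 to 0.0822) and Notch4 in venular cells (-0.52 to 0.27). Beside the replicate block values given with the results, the block changed no other call of a member. The study's limits left too few pericytes and smooth muscle cells for a fit, and a resolution of 1.2 too few arterial cells. The column-order groups may be the study's own cell groups, which the column names do not state, and these were not used in any other way. Except where a setting itself changes the samples, genes or cells used, the cause of these changes was not tested. Pooled over the mice, the median depth per cell was lowest in pericytes. This did not hold in Aromhum mice 1 and 2, with 3990 and 3580 UMIs in pericytes and 1925 and 1631 in capillary cells. In pericytes Hes1 rested on 137 to 362 UMIs per mouse, and 48 of 70 pairs of a member and a type could be tested.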

Other observations

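Cells in clusters that carried no type name held the same genes. In endothelial cells without a subtype, Hes1 was at 571, 472 and 507 CPM in WT and at 394, 340 and 423 in Aromhum mice, without overlap. Notch4, in contrast, was at 34.4, 34.4 and 34.1 CPM in WT and at 38.0, 39.5 and 39.0 in Aromhum mice, so that all Aromhum mice were above WT. Dll4 was at 133, 114 and 117 CPM in WT and at 99.4, 96.7 and 105 in Aromhum mice in these cells, again without overlap, whereas it overlapped in arterial and capillary cells. Of all genes with a mean of at least 10 CPM in these cells, 5.9% lay below and 18.8% above WT without overlap.

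In mural cells without a subtype, Hes1 was at 449.9, 372 and 349 CPM in WT and at 224, 243 and 329.5 in Aromhum mice, without overlap, as for 3.87% of the genes with a mean of at least 10 CPM there, and Notch3 was at 287, 369 and 397 CPM in WT and at 286, 373 and 306 in Aromhum mice, with overlap. In the 3993 cells of clusters with markers of more than 1 lineage, all 3 targets were lower in Aromhum mice without overlap, as were Dll4, Notch1 and Notch3, whereas Notch2 was higher. Of all genes with a mean of at least 10 CPM there, 11% were lower and 25.9% higher without overlap, and the share of each lineage in these clusters was not measured. Hes1 was at 508, 485 and 476 CPM in WT and at 287, 308 and 383 in Aromhum mice, Hey1 at 66.1, 67.4 and 60.9 CPM in WT and at 30.3, 37.4 and 42.2 in Aromhum mice and Heyl at 29.5, 48.6 and 30.5 CPM in WT and at 24.8, 23.8 and 22.7 in Aromhum mice. Dll4 was at 117, 98.6 and 111 CPM in WT and at 58.7, 53.9 and 90.7 in Aromhum mice, Notch1 at 283, 258 and 299.6 CPM in WT and at 165, 246 and 253 in Aromhum mice, Notch3 at 132, 122 and 133 CPM in WT and at 90.0, 113 and 119 in Aromhum mice and Notch2 at 12.2, 10.2 and 10.2 CPM in WT and at 13.1, 13.8 and 14.8 in Aromhum mice. None of these values was tested.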
